A study of Mus musculus with 16 samples.

Results

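The 50 genes described here are the mitosis and spindle genes of bulk RNA-seq from cocultures of sympathetic ganglia and fibroblasts, and they were chosen by gene name as protein-coding rows of the deposited tables, 50 of the 21684 protein-coding genes listed. All 50 were found in both tables. The list was drawn up with results of these comparisons already known, so the shared direction of its members against SCG alone and against SCG+MEF is given as a description. The nerve libraries came from explants of superior cervical ganglia (SCG), sympathetic ganglia of wild-type C57BL/6J pups of postnatal days 1 to 4, cultured alone (SCG, n = 3), with NIH 3T3 fibroblasts (SCG+MEF, n = 3) or with mPSC1 cells (SCG+PSC, n = 4). The PSC libraries came from mPSC1 cells, a single immortalized line of murine pancreatic stellate cells, cultured alone (PSC, n = 3) or with SCG explants (PSC+SCG, n = 3). In a coculture 10000 cells grew on an insert over 8 to 13 explants for about 70 hours, with shared medium and no contact. The paper's methods name 4 experimental batches by date, without saying which library belongs to which. Nothing in the labels says that libraries of a group came from separate litters or cultures. The p-values therefore measure the spread between these libraries, and how far that spread is technical is not known.

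Mitosis begins when cyclin-dependent kinase 1 bound to cyclin B is switched on, after which condensin folds the chromosomes, kinetochores attach them to spindle microtubules, and the spindle assembly checkpoint holds the anaphase-promoting complex back until every chromosome is attached. Genes for these proteins are transcribed together late in the cell cycle, through the MuvB complex with the transcription factors B-Myb and FOXM1, and are low in cells that have left the cycle. Postmitotic sympathetic neurons are such cells, while the satellite glia, Schwann cells, fibroblasts, endothelial cells and macrophages around them can divide. Values below are normalized counts, reads on a gene after division by the size factor of the library, and fold changes are on the log2(count + 1) scale. In bulk RNA a different number of cells of a type and a different amount of RNA per cell cannot be told apart.

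The promoters of the members shared sequence features that the choice of the list did not use. A pair of motifs was searched on both strands from 250 bases before to 50 bases from the annotated start of each gene, the cell cycle genes homology region (CHR, TTTGAA), the element known to bind MuvB, and the CCAAT box (CCAAT), known to bind NF-Y. The CHR was in 26 of the 50 member promoters (52%) and in 17.1% of the promoters of 21770 protein-coding genes. A CCAAT box was in 33 member promoters (66%) against 39.9% of all, and both motifs were in 20 (40%) against 7.45%. The 67 other mitosis genes, a list of further genes of spindle, kinetochore and cytokinesis, lay between with the CHR in 35.8% and both in 25.4%. The 6 promoters printed here are examples that hold both motifs near the start, and include Bub3, whose counts did not follow those of the other members. They do not stand for the list, in which 17 members had a CHR between -60 and 30. Each printed promoter is the GRCm39 sequence from 120 bases before the start through the first 20 bases transcribed. It is written 5′ to 3′ along the gene, with every match on either strand in capitals. In Kif23 the CCAAT box began at position -15 and the CHR at -6, counted from the start at 1, and in Racgap1 they began at -12 and 6. The only overlap of both motifs in a member promoter was in Cdca8.
Cdk1 (chr10:69188749-69188888, strand minus): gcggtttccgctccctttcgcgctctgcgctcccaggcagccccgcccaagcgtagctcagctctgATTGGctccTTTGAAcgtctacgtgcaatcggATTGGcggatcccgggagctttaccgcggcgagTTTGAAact
Kif23 (chr9:61854054-61854193, strand minus): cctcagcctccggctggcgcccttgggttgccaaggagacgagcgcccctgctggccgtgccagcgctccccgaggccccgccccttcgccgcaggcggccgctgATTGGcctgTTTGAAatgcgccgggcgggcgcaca
Racgap1 (chr15:99549518-99549657, strand minus): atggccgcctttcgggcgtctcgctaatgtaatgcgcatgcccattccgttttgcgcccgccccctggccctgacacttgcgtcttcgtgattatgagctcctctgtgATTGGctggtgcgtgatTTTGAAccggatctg
Prc1 (chr7:79944067-79944206, strand plus): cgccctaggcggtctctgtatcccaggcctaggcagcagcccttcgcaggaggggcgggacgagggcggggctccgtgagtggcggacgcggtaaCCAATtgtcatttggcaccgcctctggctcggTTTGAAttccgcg
Kif11 (chr19:37364679-37364818, strand plus): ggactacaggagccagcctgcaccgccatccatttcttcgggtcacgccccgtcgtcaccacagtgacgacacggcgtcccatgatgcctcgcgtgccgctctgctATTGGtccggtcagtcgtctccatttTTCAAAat
Bub3 (chr7:131161962-131162101, strand plus): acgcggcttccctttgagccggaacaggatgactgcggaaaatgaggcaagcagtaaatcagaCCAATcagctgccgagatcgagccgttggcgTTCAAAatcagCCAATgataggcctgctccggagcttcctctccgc
A match describes letters and not binding, and no match means only that these exact letters were absent from the window searched. Members with a CHR had a median log2 fold change of 1.06 in SCG+PSC against SCG, and the 24 without a match had 1.07. Most members changed by similar amounts (quartiles 0.95 and 1.22), so this split could show little.

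The ganglion libraries carried their tissue's markers, and libraries numbered 2 stood apart in the members. All 16 sympathetic neuron markers were detected in every nerve library, with Th, the rate-limiting enzyme of catecholamine synthesis, at 18795, 8836 and 29967 in SCG. Summed neuron markers ranged from 190104 to 380453 in SCG, from 265369 to 353220 in SCG+MEF and from 211535 to 364041 in SCG+PSC replicates 1 to 3, lowest in replicate 2 of each group. Summed over the 50 members, the counts were 22076, 74360 and 34632 in SCG replicates 1, 2 and 3. In SCG+MEF they were 27269, 76569 and 40171, and in SCG+PSC 59276, 101090 and 66316. Replicate 2 was the highest of its group for 49 members in each of the 3 groups, the exception being Bub3. The ratio of replicate 2 to replicate 1 had a median over the members of 4.44 in SCG, 3.35 in SCG+MEF and 1.81 in SCG+PSC. Same-numbered libraries of the 3 groups therefore resembled each other, and the comparisons below are given both without and with the replicate number as a block.

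**Figure D1:**
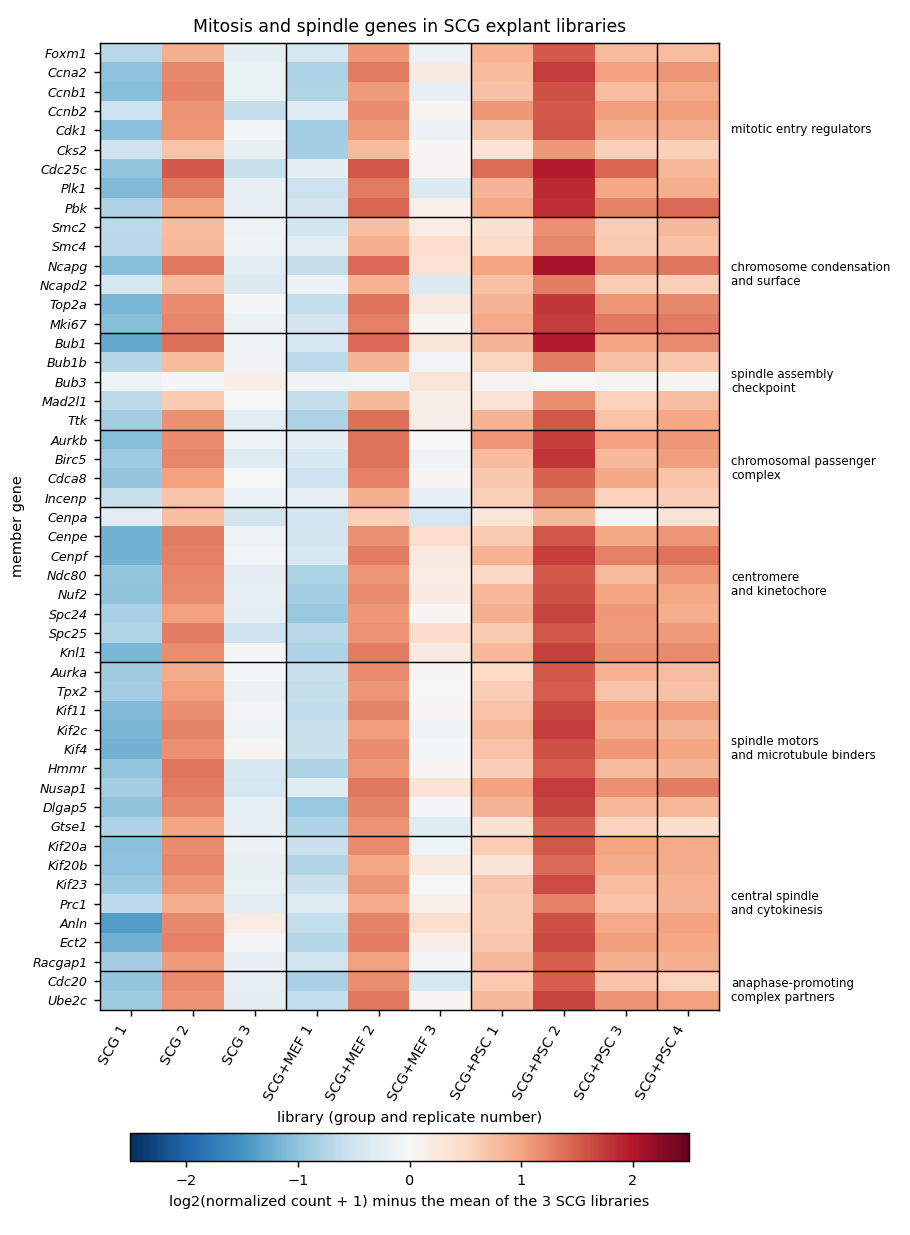
Expression of the 50 members (rows, grouped by role) in the 10 nerve libraries (columns), as log2(normalized count + 1) minus the mean of the 3 SCG libraries; red is higher and blue lower. Columns of replicate 2 are the reddest of each group, all SCG+PSC columns are red for 49 members, and Bub3 stays near 0 throughout.

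SCG+PSC was compared with SCG to see which ganglion genes differ after coculture with stellate cells. All 50 members had a higher mean log2 level in SCG+PSC, with a median log2 fold change of 1.06 (2.09-fold, quartiles 0.95 and 1.22) and a range from 0.03 (Bub3) to 1.59 (Cdc25c), while the median over all 23491 genes tested was 0.00. The median of the members was 0.57 without SCG replicate 1 and 1.66 without SCG replicate 2, the lowest and highest values on leaving out 1 library without a block. Within same-numbered pairs, 49 of the 50 were higher in SCG+PSC in all 3 pairs, against 17.5% of all genes. Without a block no member passed limma's test at an adjusted p of 0.05 and a log2 fold change of 0.5, where 0.0128% of all genes were called higher. At an unadjusted p under 0.05 there were 11 members, against 4.01% of all genes in either direction, and edgeR and DESeq2 without a block also called 0. With the replicate block 46 members were called higher and none lower, against 1.21% of all genes called higher, and edgeR with the block called 46. No member had groups that did not overlap, against 4.24% of all genes, since SCG replicate 2 lay above SCG+PSC replicate 1 in 49 members. The blocked count rested on the libraries of SCG replicates 1 and 3 and SCG+PSC replicate 1. It was 0 without SCG replicate 3 (48 at an unadjusted p under 0.05), 6 without SCG replicate 1 and 22 without SCG+PSC replicate 1, and between 40 and 48 without each of the other 3. Leaving out all 3 libraries numbered 2, a choice made after seeing the data, gave 47 members with the block and 0 without it (49 at an unadjusted p under 0.05). The shares of all genes in these smaller fits are not given here. In the full fit with the block, 2511 of all 23491 genes were at an unadjusted p under 0.05.

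**Figure D2:**
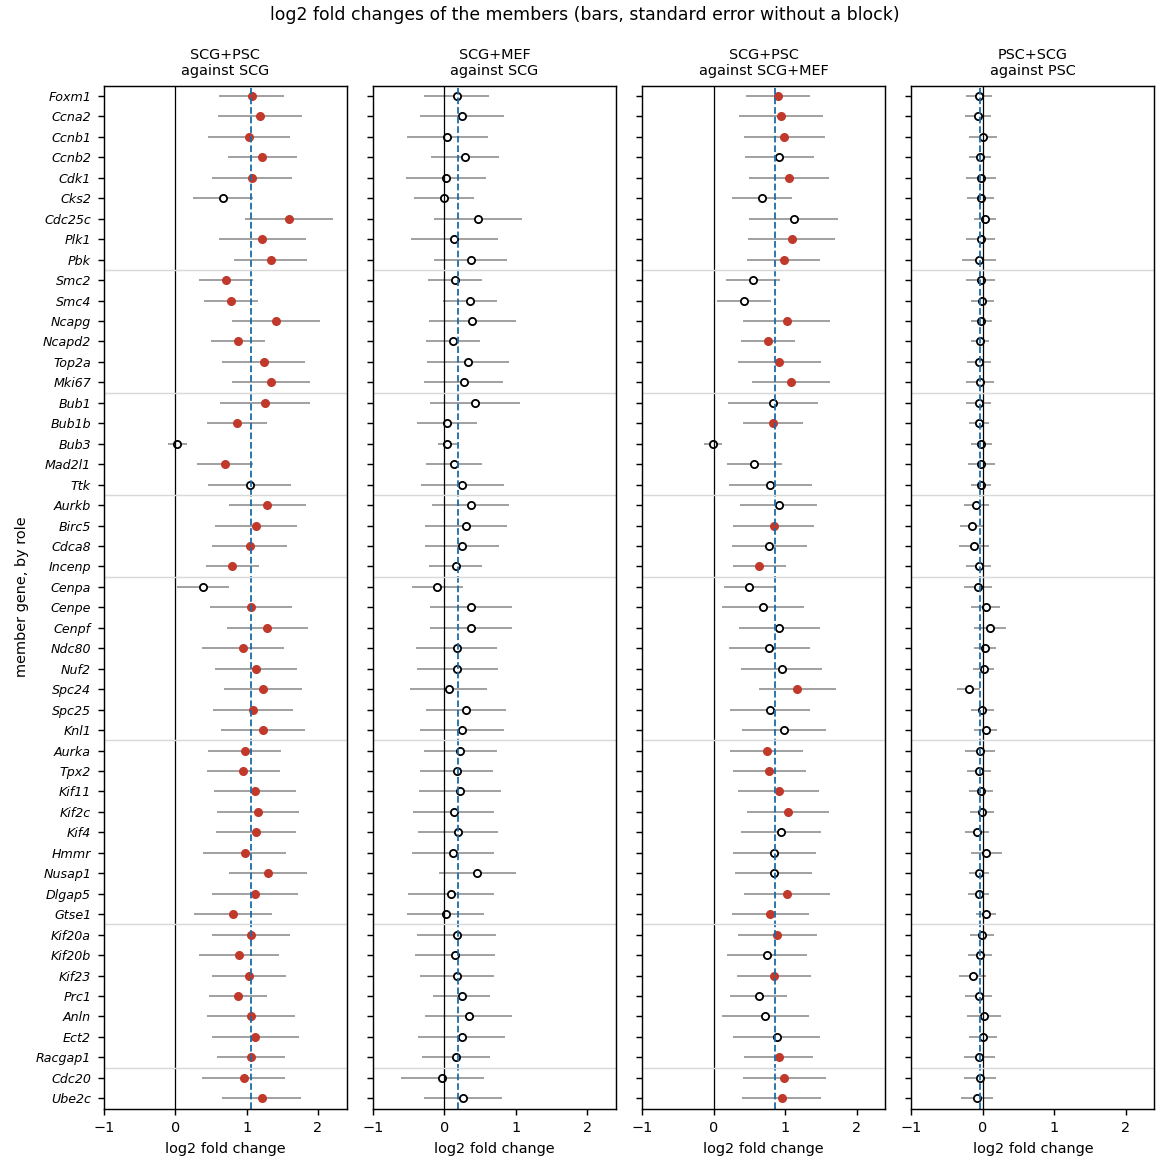
The log2 fold change of each member in the 4 comparisons, with bars for the standard error without a block; filled red points passed limma's test with the replicate block, and the dashed line is the median of the members. Nearly all members lie near 1 in SCG+PSC against SCG and near 0 in PSC+SCG against PSC.

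The regulators of mitotic entry had a median log2 fold change of 1.19, and 8 of the 9 were called higher with the block. Foxm1 (ENSMUSG00000001517, chr6:128339518-128353147, plus strand), the transcription factor of late cell cycle genes, had counts of 604, 1844 and 834 in SCG and 1790, 2832 and 1696 in SCG+PSC. It rose in every pair, its mean going from 1094 ± 659 to 2106 ± 631 (SD, n = 3). On the log2 scale this was 1.07, with a standard error of 0.45 without the block and 0.15 with it, and limma gave an adjusted p of 0.0074 with the block. SCG+PSC replicates 1 and 3 lay below SCG replicate 2, so the groups overlapped. Cdk1, the mitotic kinase itself, had 397, 1766 and 796 in SCG and 1374, 2454 and 1528 in SCG+PSC. Ccna2, which encodes cyclin A2, had 429, 2009 and 777 in SCG and 1512, 2958 and 1784 in SCG+PSC. In both genes replicate 1 of SCG was the lowest library and the pair of replicates 1 differed most, 3.45-fold in Cdk1 and 3.52-fold in Ccna2. Cdc25c, the phosphatase that activates cyclin-dependent kinase 1, had the largest change of the members, from 55.7, 324 and 74.8 in SCG to 294, 432 and 300 in SCG+PSC. On the log2(count + 1) scale its pairs differed 5.2-, 1.33- and 3.97-fold. Pbk, a mitotic kinase, had 198, 672 and 296 in SCG and 666, 1209 and 807 in SCG+PSC. This was 1.34 on the log2 scale (SE 0.51 without the block). Cks2, a small subunit of cyclin-dependent kinases, was the exception of this group, changing by 0.67 on the log2 scale. Its SE was 0.42 without the block and 0.16 with it, and limma gave an adjusted p of 0.0655 under the block. Of its exon bases, 7.6% lie in Gm22806 on the same strand.

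Genes of chromosome structure were called higher with the block in 6 of 6 cases, with a median log2 fold change of 1.06. Mki67 (ENSMUSG00000031004, chr7:135291513-135318299, minus strand), whose product coats mitotic chromosomes and marks cycling cells, had 999, 4867 and 1852 in SCG and 4024, 7027 and 5218 in SCG+PSC. The means were 2573 ± 2032 and 5423 ± 1512 (SD, n = 3). The log2 change was 1.34, with a standard error of 0.55 without the block and 0.20 with it, and the adjusted p from limma was 0.00854 under the block. SCG replicate 2 alone held most of the SCG counts, and it lay above SCG+PSC replicate 1. Top2a, topoisomerase II alpha, which untangles sister chromatids, had 1008, 5057 and 2160 in SCG and 4018, 7566 and 4804 in SCG+PSC. Among the condensin subunits, Smc4 had 1133, 3230 and 1699 in SCG and 2558, 4261 and 2911 in SCG+PSC, a log2 fold change of 0.78. Ncapg, a regulatory subunit of condensin I, had the larger change of 1.41, from 115, 603 and 199 to 475, 1000 and 549.

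**Figure D3:**
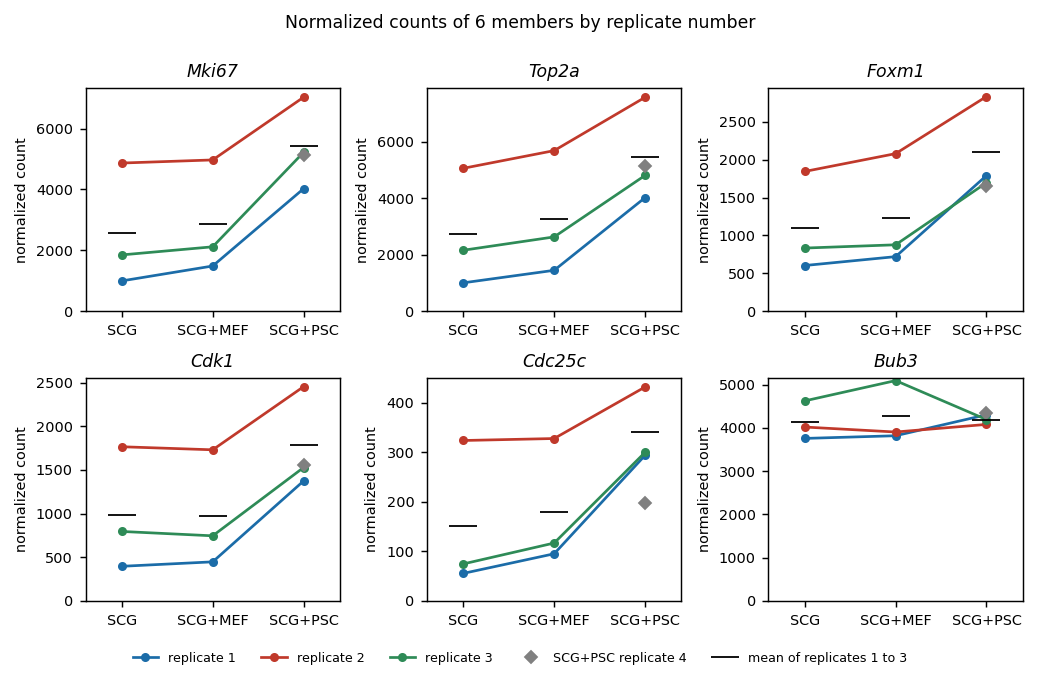
Normalized counts of 6 members, with same-numbered replicates joined by lines, black dashes for the mean of replicates 1 to 3 and a grey diamond for SCG+PSC replicate 4; axes start at 0. In the first 5 genes every line rises from SCG to SCG+PSC with replicate 2 on top, while Bub3 has 4194 in SCG+PSC and 4135 in SCG on average.

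Of the 5 genes of the spindle assembly checkpoint, 3 were called higher with the block. Bub1b, which encodes the inhibitor BubR1, had 482, 1369 and 744 in SCG and 1155, 1932 and 1311 in SCG+PSC, and Mad2l1, whose product inhibits Cdc20, had 399, 999 and 634 and then 818, 1408 and 944. Bub1, the checkpoint kinase, had 114, 726 and 259 in SCG and 499, 1084 and 552 in SCG+PSC. Bub3 (ENSMUSG00000066979, chr7:131161880-131178553, plus strand) encodes the partner that brings both Bub proteins to the kinetochore, and its counts were 3758, 4021 and 4626 in SCG and 4305, 4082 and 4194 in SCG+PSC. The log2 change was 0.03, with a standard error of 0.13 without the block and 0.09 with it, and its sign changed between the settings tried. Bub3 alone among the members was highest in replicate 3 of SCG, lower in SCG+PSC than SCG in 1 pair, and spread by no more than 1.23-fold between the SCG libraries. Its promoter holds a CHR at -26 and CCAAT boxes at -57 and -15, as printed above. Ttk, the checkpoint kinase Mps1, had a log2 fold change of 1.04 with an adjusted p from limma of 0.0561 with the block.

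All 4 genes of the chromosomal passenger complex, which corrects faulty attachments and then moves to the midzone, were called higher with the block. Birc5, which encodes survivin, had 208, 910 and 314 in SCG and 674, 1352 and 690 in SCG+PSC. Aurkb, the kinase of the complex, had 162, 766 and 310 in SCG and 725, 1122 and 690 in SCG+PSC. This was 1.29 on the log2 scale (SE 0.54 without the block). The change was smaller for the scaffold Incenp, 0.80, with 685, 1669 and 918 in SCG and 1539, 2391 and 1513 in SCG+PSC. Cdca8, which encodes borealin, had 219, 874 and 433 and then 697, 1212 and 848.

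At the centromere and kinetochore 7 of the 8 members were called higher with the block, and the centromeric histone was not. Cenpa had 464, 932 and 398 in SCG and 688, 971 and 583 in SCG+PSC, or 0.39 on the log2 scale. Its SE was 0.36 without the block and 0.12 with it, and limma gave an adjusted p of 0.211 under the block. Cenpf and Cenpe, large proteins of the outer kinetochore, changed more. Cenpf had 201, 1101 and 435 in SCG and 843, 1524 and 1097 in SCG+PSC, and Cenpe had 291, 1613 and 606 and then 1031, 1943 and 1293. The microtubule-binding network showed similar folds in Ndc80 (0.95), Nuf2 (1.13), Spc24 (1.23), Spc25 (1.09) and Knl1 (1.23) on the log2 scale. Those 5 genes had between 78.0 and 348 counts in SCG replicates 1 and 3.

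All 9 spindle motors and microtubule binders and all 7 genes of the central spindle and cytokinesis were called higher with the block. Their log2 fold changes lay between 0.81 and 1.30 and between 0.88 and 1.12. Tpx2, which activates Aurora A on spindle microtubules, had 741, 2743 and 1221 in SCG and 2083, 3883 and 2207 in SCG+PSC. Kif11, the motor that pushes the spindle poles apart, had 334, 1605 and 683 and then 1168, 2269 and 1434. Hmmr, a microtubule binder of the spindle poles, had the smallest ratio of this group in the pair of replicates 2, 1.12-fold, beside 2.97- and 2.25-fold in the others. Nusap1, which bundles spindle microtubules, had 215, 949 and 285 in SCG and 778, 1306 and 855 in SCG+PSC. Prc1, the bundler of midzone microtubules, had 1188, 3484 and 1550 in SCG and 2920, 4448 and 3057 in SCG+PSC. This was 0.88 on the log2 scale (SE 0.40 without the block). Anln, which encodes the contractile ring scaffold anillin, had 389, 2364 and 1161 and then 1603, 3071 and 1978. Racgap1, a subunit of centralspindlin, had 641, 2423 and 1014 in SCG and 2030, 3298 and 2143 in SCG+PSC. In each of these 6 genes with counts given, SCG replicate 1 was the lowest of the SCG and SCG+PSC libraries and SCG+PSC replicate 2 the highest.

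Both partners of the anaphase-promoting complex were called higher with the block. Cdc20, its activator, had 322, 1434 and 551 in SCG and 999, 1799 and 1044 in SCG+PSC, and Ube2c, its ubiquitin-conjugating enzyme, had 249, 1004 and 398 and then 813, 1506 and 1009. Their log2 fold changes were 0.96 and 1.21.

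The size of the change depended on the replicate number when read as a ratio. SCG+PSC over SCG had a median over the members of 3.26 in replicates 1, 1.39 in replicates 2 and 2.09 in replicates 3, and 47 members had this order. Read as a difference of normalized counts, the summed members differed by 37200 in replicates 1, 26730 in replicates 2 and 31684 in replicates 3. The ratio was thus lowest where the SCG library was highest, and the smallest summed difference was 0.719 of the largest. Single members were less even, since in 22 of the 50 the difference was at least 1.5 times larger in 1 pair than in another. Hmmr differed by 620, 183 and 583 counts and Cenpa by 224, 38.9 and 186 in pairs 1, 2 and 3. SCG+PSC replicate 4 has no same-numbered SCG library and was kept out of these tests. It lay above SCG replicates 1 and 3 in 49 members and above all 3 SCG libraries in 8. Its value was within the range of SCG+PSC replicates 1 to 3 in 45 members. The shares of all genes for these counts of replicate 4 are not given here, so the counts are a description only.

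**Figure D4:**
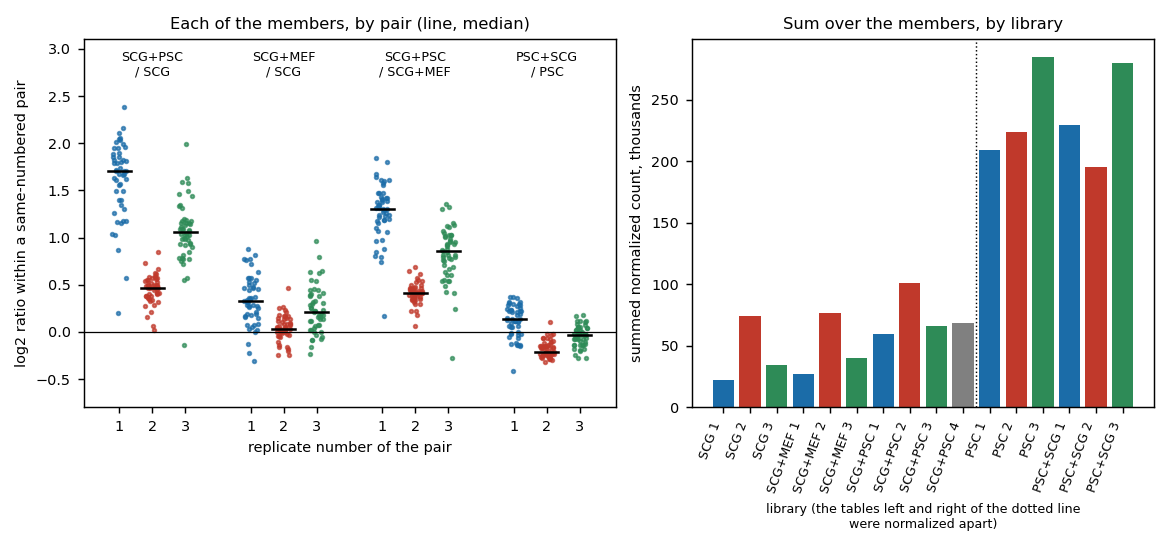
Left, the log2 ratio of each member within same-numbered pairs in the 4 comparisons, with a line at the median of the members; right, the summed normalized count of the members in each of the 16 libraries, coloured by replicate number (blue 1, red 2, green 3, grey 4). The ratios of SCG+PSC to SCG are lowest in pair 2, and PSC libraries hold more counts of the members than any nerve library, in a table normalized apart.

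SCG+MEF was compared with SCG as the coculture with another fibroblast. The members differed little, with a median log2 fold change of 0.19 (quartiles 0.13 and 0.30) beside 0.02 over all genes. The mean log2 levels of 47 members were higher in SCG+MEF, and those of Cenpa (-0.10), Cdc20 (-0.03) and Cks2 (below 0 by less than 0.01) were not. Limma called 0 members without a block and 0 with it, against 0.0128% and 0.115% of all genes called higher. An unadjusted p under 0.05 was found for 0 members without the block, against 3% of all genes in either direction. With the block it was found for 3 members, against 1771 of all 23491 genes. Neither edgeR, without or with the block, nor DESeq2 called any. In 27 members SCG+MEF was higher in all 3 pairs, against 15.2% of all genes, and in 0 did the groups not overlap, against 2.99%. The largest changes were those of Cdc25c, 0.47 (SE 0.62 without the block and 0.29 with it), and Nusap1, 0.46 (SE 0.54 and 0.21), which were smaller than the error without the block and larger than the error with it. Mki67 had 1488, 4969 and 2118 in SCG+MEF, which in the pairs was 1.49-, 1.02- and 1.14-fold the count of SCG. The median over the members changed sign, to -0.27, when SCG+MEF replicate 2 was left out without a block, and was 0.77 without SCG replicate 2.

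SCG+PSC against SCG+MEF tests the difference between the 2 cocultures itself, and shares the SCG+PSC libraries with the comparison above. The median log2 fold change of the members was 0.87 (1.82-fold, quartiles 0.76 and 0.95) beside -0.01 over all genes, and 49 members were higher in SCG+PSC in all 3 pairs, against 15.6% of all genes. Limma called 0 members without a block, where 0% of all genes were called higher, with 0 at an unadjusted p under 0.05 against 3.21% of all genes. EdgeR and DESeq2 without a block called 0 as well. With the block 25 were called higher, against 0.66% of all genes, and edgeR with the block called 32. The groups overlapped in all 50, while 3.9% of all genes did not overlap in this direction. All 25 were also called with the block against SCG. They included Foxm1 (0.90, standard error 0.15 with the block), Plk1 (1.09), the polo-like kinase of mitotic entry, Mki67 (1.08), Cdk1 (1.05) and Spc24 (1.17), the largest of the members. Of the 9 regulators of mitotic entry 6 were called, and of the 8 kinetochore genes 1, the other 7 having log2 fold changes from 0.50 to 0.98. Whether these groups differ was not tested. Bub3 had -0.01. This count too rested on single libraries, since with the block it was 0 without SCG+MEF replicate 1, SCG+MEF replicate 3 or SCG+PSC replicate 1 (48, 49 and 46 at an unadjusted p under 0.05), 9 without SCG+MEF replicate 2, 4 without SCG+PSC replicate 3 and 48 without SCG+PSC replicate 2. Without all 3 libraries numbered 2 it was 41. The shares of all genes in these smaller fits are not given here either. In the full fit with the block, 2750 of all 23491 genes were at an unadjusted p under 0.05.

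PSC+SCG was compared with PSC to see whether ganglia alter the stellate cells themselves. The members were abundant and nearly level in this line. Mki67 had 11443, 13996 and 16996 in PSC and 12168, 11717 and 17588 in PSC+SCG, and Top2a had 16549, 18163 and 22163 and then 19323, 15393 and 20198. Replicate 3 was the highest PSC library for all 50 members and the highest PSC+SCG library for 41. The median log2 fold change was -0.04, with a range from -0.20 (Spc24) to 0.10 (Cenpf) and a median of -0.01 over all 21273 genes tested. Limma called 0 members without a block and 0 with it, with 0 at an unadjusted p under 0.05 in either fit. Of all genes, 0% were called higher without the block and 0.315% with it, and 1.92% had an unadjusted p under 0.05 without it. The standard error of Mki67 was 0.20 without the block and 0.10 with it around a log2 fold change of -0.04. No member was higher in all 3 pairs, against 12.3% of all genes, and 6 were lower in all 3, against 14.3%. Every member overlapped between the groups, while 2.68% of all genes did not overlap with PSC+SCG higher. By pair, PSC+SCG over PSC had a median over the members of 1.10, 0.865 and 0.979 in replicates 1, 2 and 3, so the direction differed between pairs. The 10 members with a positive change were Cenpf and Cenpe (0.04), Ndc80 (0.03), Nuf2 (0.01), Knl1 (0.04), Gtse1 (0.05), Hmmr (0.05), Anln (0.02), Cdc25c (0.03) and Ect2 (0.00), none larger than its standard error. No test on reads was run for this table.

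Other genes of cell division had changes of the same direction in the ganglia. Of the 67 other mitosis genes, 0 were called in SCG+PSC against SCG without a block (16 at an unadjusted p under 0.05, and 0 by edgeR and DESeq2), while 41 were called higher with it and none lower, with a median log2 fold change of 0.87. Of all genes, 4.01% were at an unadjusted p under 0.05 without the block and 1.21% were called higher with it. Against SCG+MEF the blocked count was 23, beside 0.66% of all genes called higher, and the median was 0.75. In SCG+MEF against SCG 0 were called with the block. There 3 were at an unadjusted p under 0.05, beside 1771 of all 23491 genes. The largest changes among the 41 were those of the kinetochore subunit Ska1, 1.61 (standard error 0.73), the spindle motor Kif15, 1.48 (standard error 0.59), the cohesin protector Sgo1, 1.31 (standard error 0.51), the chromatin protein Cdca2, 1.29 (standard error 0.52), and the spindle pole protein Aspm, 1.29 (standard error 0.58). These standard errors are those without the block. Kif15 had 109, 562 and 226 in SCG and 527, 1062 and 549 in SCG+PSC. Pttg1, which encodes securin, and Zwint, a kinetochore protein, had log2 fold changes of -0.09 and -0.03 and were singled out after their values were seen. Of 32 DNA replication genes, 20 were called higher in SCG+PSC against SCG with the block, beside 1.21% of all genes. Without it 0 were called, with 12 at an unadjusted p under 0.05, beside 4.01% of all genes. Their median log2 fold change was 0.66.

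Among 23 regulators of the transcription of mitotic genes, the median log2 fold change in SCG+PSC against SCG was 0.14, and 5 were called higher with the block, where 1.21% of all genes were. Without the block limma, edgeR and DESeq2 called 0 of them, with 4 at an unadjusted p under 0.05 in limma, beside 4.01% of all genes. Mybl2, which encodes B-Myb, had 117, 357 and 179 in SCG and 359, 699 and 427 in SCG+PSC. Its log2 change was 1.27 (SE 0.50 without the block), and limma gave an adjusted p of 0.00713 under the block. E2f8, an E2F that represses its targets, had 99.2, 359 and 181 in SCG and 469, 586 and 476 in SCG+PSC, where every SCG+PSC library lay above every SCG library. The others were E2f1 (0.62), E2f7 (0.92) and the pocket protein gene Rbl1 (0.79). The regulators with the highest counts did not pass the test, among them Rbbp4 (0.01), Cdkn1a (-0.06), Tfdp1 (0.25) and Trp53 (0.17).

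Marker lists of the cells in a ganglion are given for the same comparison, and their part in the changes of the members was not tested. None of the 16 sympathetic neuron markers was called in SCG+PSC against SCG with the block, and their median was 0.03. Of 12 satellite glia and Schwann cell markers 0 were called (median -0.03), with summed counts from 131020 to 155080 in SCG and from 123746 to 162697 in SCG+PSC. The 12 macrophage markers had a median of -0.08, with the mannose receptor gene Mrc1 called higher with the block, and sums of 16278 to 25838 in SCG and 16615 to 22246 in SCG+PSC. The 10 endothelial markers had a median of 0.62, with 7 positive, 3 negative and a range from -0.86 to 1.55. Of these 10, 8 were at an unadjusted p under 0.05 in either direction without the block, beside 4.01% of all genes. With the block Plvap (-0.86) was called lower and none of these markers higher. Their sums were 5006 to 5691 in SCG and 5174 to 5574 in SCG+PSC. Of 12 fibroblast and mural markers Lum (0.65) was called higher with the block, the median was 0.27, and the sums were 369617 to 568693 in SCG and 451927 to 555385 in SCG+PSC. Without the block limma and edgeR called 0 genes of these 5 lists, and DESeq2 called 1, a macrophage marker, higher. The fibroblast sum was highest in replicate 2 of each group, as the members were, and the neuron sum lowest. No marker of these lists was at 0 in SCG or SCG+PSC, and in SCG+MEF 1 fibroblast marker, Dpt, was at 0 in replicates 1 and 2. In SCG+PSC against SCG+MEF the neuron markers had a median of -0.13, 14 of the 16 were negative and 7 were lower in SCG+PSC in all 3 pairs. Of all 23491 genes, 12071 were negative and 4084 were lower in all 3 pairs. With the block limma called 0 of the neuron markers, with 5 at an unadjusted p under 0.05, beside 2750 of all genes. EdgeR with the block called 1 neuron marker lower, beside 33 of all genes. The other 4 lists had medians of -0.06 (glia), -0.08 (macrophage), 0.39 (endothelial) and -0.01 (fibroblast and mural) there, and with the block limma called 1 glial marker higher, 1 glial marker lower and 1 fibroblast marker lower.

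Transcripts of the stellate line itself were looked for in the ganglion libraries. The PSC mean of each member was above its SCG mean, by a median of 5.79-fold between tables that were normalized apart. Protein-coding genes with at least 1000 counts in every PSC library and at most 10 in every SCG library were 7 in number, by a rule set after the data were seen. Pax3, Klra4, Ces2g, Cck and Nkx2-3 averaged 1372 to 4704 counts in PSC and had at most 4.27 in any of the 4 SCG+PSC libraries. Ifi44 and Oas3, interferon-induced genes, had 61.4 and 28.8 in SCG+PSC replicate 1 and 423 and 104 in replicate 2, with 5.34 and 4.27 in replicate 3. The differences of the members between SCG+PSC and SCG equalled a median of 15.6%, 11.7% and 13.1% of their PSC mean in replicates 1, 2 and 3. The SCG+PSC mean was 2.52% of the PSC mean for Ifi44, 1.34% for Oas3, 0.0641% for Pax3, 0.0375% for Cck, 0.022% for Nkx2-3 and 0 for Klra4 and Ces2g. Whether stellate cell RNA contributed to the counts of the members was not tested beyond these genes.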

How the data were processed

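RNA from 16 libraries was sequenced, 10 of SCG explants and 6 of mPSC1 cells. Per the paper's methods and the submitters' processing notes, the authors used STAR 2.7.10b on GRCm39, counted reads by strand on GENCODE M33, and normalized PSC and nerve tables separately by DESeq2 1.38.3 size factors in R 4.2.2. The deposited values are these normalized counts, a signal, for 56941 genes per table. Dividing by the step of a library gave back whole reads for 14 libraries, from 31900689 to 41632381 reads on genes, and for PSC+SCG replicate 1 and SCG+PSC replicate 4 only normalized counts were used, so no count test was run for the PSC table. The lowest value of a member in a nerve library was 55.7.

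Log2(normalized count + 1) was tested with limma 3.58.1 in R 4.3.3, with a trend, over all genes with a sum of at least 10, and adjusted by Benjamini-Hochberg over them. Calls needed an adjusted p no higher than 0.05 together with a log2 difference of 0.5 or more either way. The nerve model held replicates 1 to 3 of SCG, SCG+MEF and SCG+PSC. The authors' model had the experimental batch as covariate, but no source used here ties a library to a batch. The numbers in the titles were tried as a block in its place. Deviations from the group means correlated between same-numbered libraries in every pair of the 4 comparisons (r across genes from 0.135 to 0.475). Between libraries of different numbers r ran from -0.349 to 0.121. The deviations of the 3 libraries of a group add up to 0, so these ranges are not independent. The numbers were taken to pair the libraries, a choice made on these same data. A shared number is all that the labels give. Alternatives were pseudocounts of 0.5 and 8, other filters, quantile normalization, leaving out libraries, all 4 SCG+PSC libraries, only the 2 groups compared, and edgeR 4.0.16 and DESeq2 1.42.0 on recovered reads. The fits were tested on simulated data.

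The members and lists were chosen with earlier results of these data known. Members were named by a rule, the 3 of highest mean level in each role, Foxm1, Mki67 and Cdc25c, members of the sign opposite to the median of a comparison, and the 10 with the largest change among those not called. Plk1, Ttk, Spc24, Spc25 and Kif23 were named outside this rule, as were Ccnb2, Ncapd2, Kif2c and Dlgap5 among the flagged results. Other mitosis genes were named from the calls with the block, since there were none without it. Gene positions, promoter starts (Ensembl canonical transcript) and sequences came from GENCODE M39 on GRCm39, a later release than the authors' M33. Exon bases of 5 members lie partly in other genes on the same strand.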

Additional observations from a re-analysis of the deposited data

Results flagged for a closer look

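Among the 4 SCG+PSC libraries, replicate 2 lay far above the other 3 in 14 of the 50 members, by Dixon's ratio of the gap to the nearest library over the range, for which chance flags about 1 in 20 groups. The ratio exceeded the 95% critical value for 4 libraries in each, at 0.886 for Foxm1, 0.922 for Ccnb2, 0.833 for Cdk1, 0.921 for Plk1, 0.836 for Ncapd2, 0.919 for Aurkb, 0.955 for Incenp, 0.909 for Tpx2, 0.914 for Kif2c, 0.973 for Dlgap5, 0.868 for Gtse1, 0.846 for Kif23, 0.894 for Racgap1 and 0.873 for Cdc20. The members vary together over libraries, so these are not 14 separate signs.

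SCG+PSC replicate 4, which entered no main comparison, lay above all 3 SCG libraries in 8 members and above the SCG median in all 50, with a median ratio to the SCG median of 2.15. Shares of all genes are not given for these counts, which were not tested.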

How the results depend on the processing

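The counts of called members and of other mitosis genes were above 0 only in fits with the replicate block, and were 0 in all of those run without it. In SCG+PSC against SCG the members called went from 0 to 46 with the block in limma and 46 in edgeR, and the other mitosis genes from 0 to 41 and 42. Against SCG+MEF the members went from 0 to 25 in limma and 32 in edgeR, and the other mitosis genes from 0 to 23 and 24. With the 3 libraries numbered 2 left out, the block gave 47 members and 39 other mitosis genes against SCG and 41 and 28 against SCG+MEF. Leaving out 1 library, with or without the block, gave 0 to 48 members and 0 to 43 other mitosis genes against SCG, and 0 to 48 and 0 to 37 against SCG+MEF. For fits with libraries left out, the shares of all genes called are not given here. The same libraries left out gave medians of the members from 0.57 to 1.66 on the log2 scale against SCG, 0.46 to 1.36 against SCG+MEF, -0.27 to 0.77 in SCG+MEF against SCG and -0.16 to 0.10 in PSC+SCG against PSC. In the last 2 comparisons 0 members were called under any alternative. The block changed no other call among these summaries. Pseudocounts, filters, quantile normalization, adjusted p alone, all 4 SCG+PSC libraries, the 2 groups alone and count tests without the block left the counts of called members and of other mitosis genes at 0. Among the named members, Bub3 alone changed sign under any alternative in SCG+PSC against SCG and against SCG+MEF. In SCG+MEF against SCG and in PSC+SCG against PSC, 33 and 34 of the 35 changed sign under at least 1 alternative, none of them called.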
